A study of Penicillium oxalicum with 9 samples.

Results

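The transcriptome of a clrB deletion strain of Penicillium oxalicum was set against that of an rcoA deletion strain, over all genes of the deposited table. This comparison set 3 libraries of the clrB deletion against 3 of the rcoA deletion, 6 of the 9 libraries of the study. The other 3 came from the wild type 114-2, the strain that the labels name beside them. The wild type libraries entered the test through the shared estimate of the spread. P. oxalicum is a filamentous fungus known for the mixture of cellulases and hemicellulases it secretes on plant material. ClrB is a zinc cluster activator that switches on cellulase genes when cellulose is present. RcoA is the fungal counterpart of Tup1, a corepressor that binds no DNA itself and is brought to promoters by DNA-binding repressors, among them in yeast the glucose repressor Mig1. Loss of the activator removes a positive input to cellulase genes, whereas loss of the corepressor removes a partner of many repressors, and the comparison asks which processes separate these losses.

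All 9 libraries came from mycelia grown in the same way. Spores were grown for 22 h at 30 °C with 2% glucose, and the mycelia were then kept for 24 h with 1% cellulose and 1% wheat bran as carbon. Apart from the deleted gene the labels name no further allele or treatment in any strain, and they leave unsaid whether a deletion strain is 1 clone and whether replicate libraries came from separate cultures. The p-values therefore describe the spread of these libraries alone, and that spread may be technical. Values are FPKM, fragments counted per length of transcript and per depth of the library, as the authors deposited them.

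The libraries differed in how closely they matched each other. Between libraries of the rcoA deletion, the correlation of log2 values was 0.984 to 0.993. Replicates 1 and 3 of the clrB deletion correlated at 0.991, while replicate 2 correlated with them at 0.946 and 0.957, about as closely as with the wild type libraries, at 0.942 to 0.952. Results that rest on this library are therefore also given without it. Correlations between a clrB deletion library and an rcoA deletion library were 0.785 to 0.813. FPKM summed to between 776855 and 820648 per library over the 9 libraries, and 9597 to 9724 genes had a value above 0.

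The deleted genes were checked first. The gene described as the cellulolytic transcriptional activator ClrB (PDE_05999) read 0.11, 0.11 and 0.08 FPKM in the clrB deletion, against 57.7, 62.3 and 69.8 in the rcoA deletion and 191, 200.2 and 163 in wild type (log2 difference -5.86, SE 0.11, adjusted p = 2.34e-09). No label ties rcoA to an identifier, and 4 genes are described as TUP1. Of these, PDE_01024 read 65.9, 67.6 and 68.4 FPKM in the clrB deletion, against 2.08, 2.67 and 3.38 in the rcoA deletion and 67.3, 65.5 and 70.7 in wild type, so that low values stood in the libraries labelled as rcoA deletion (log2 difference 4.22). Of the others, PDE_08941 averaged 30.3 ± 0.545 FPKM in the clrB deletion, against 19.3 ± 1.23 in the rcoA deletion (mean ± SD, n = 3 each, as for every mean given here). PDE_00660 averaged 19.5 ± 2.20 FPKM in the clrB deletion, against 25.1 ± 0.435 in the rcoA deletion, and PDE_07598, which was not called, averaged 7.05 ± 0.999 FPKM in the clrB deletion, against 7.36 ± 1.51 in the rcoA deletion. In the rcoA deletion the clrB transcript averaged 63.3 ± 6.12 FPKM, below 185 ± 19.3 in wild type.

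Of the 9907 genes, 9097 with a mean of at least 1 FPKM over the 9 libraries were tested with limma, and 5470 (60.1%) were called at a Benjamini-Hochberg adjusted p under 0.05. Of these, 3204 (35.2% of genes tested) were higher in the clrB deletion than in the rcoA deletion and 2266 (24.9%) were lower. On the log2(FPKM + 1) scale, a difference of 2-fold or more was found for 1269 higher (13.9%) and 909 lower genes (9.99%), and of 4-fold or more for 496 (5.45%) and 253 (2.78%). The libraries of both strains did not overlap for 5956 genes (65.5%). Without clrB deletion replicate 2, 3386 genes (37.2%) were higher and 2286 (25.1%) lower, and 5125 of the 5470 genes were called again in the same direction. The median log2 difference over all genes was 0.11, and the higher genes made up 58.6% of the calls. This share was 48.3% with trimmed mean scaling, 46.6% with libraries set to equal medians and 45.3% with quantile normalization, which moved the median to -0.01, -0.03 and -0.05. With so many genes called, the counts below are read beside 35.2% higher and 24.9% lower among all genes tested.

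**Figure D1:**
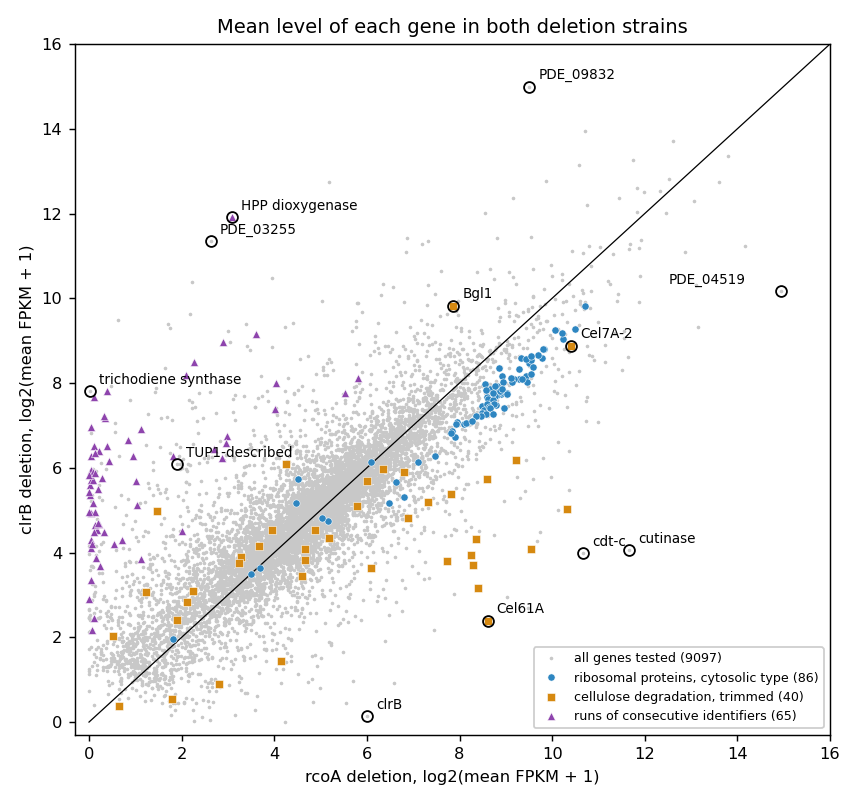
Mean level of each of the 9097 tested genes in the clrB deletion (vertical axis) and in the rcoA deletion (horizontal axis), both as log2(mean FPKM + 1), with the line of equal values. Genes of cellulose degradation and cytosolic ribosomal proteins lie mostly under the line, and the 65 genes in runs of consecutive identifiers lie above it, many of them near 0 in the rcoA deletion.

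Genes for the breakdown of cellulose were lower in the clrB deletion than in the rcoA deletion more often than they were higher. Of 59 tested members of the cellulose degradation list, 32 were lower and 18 higher (54.2% and 30.5%), with a median log2 difference of -0.64. The list was drawn by words in the gene descriptions, which also caught glucan 1,3-beta-glucosidases and a few other genes that act on other substrates. With these removed after the values were seen, 40 members remained, of which 25 were lower and 8 higher (62.5% and 20.0%), with a median of -0.89. The median FPKM of these 40 genes was 15.9, 17.5 and 14.8 in the clrB deletion libraries, against 38.0, 42.9 and 53.7 in the rcoA deletion and 65.3, 58.0 and 55.2 in wild type. The libraries of the deletion strains did not overlap in this median, and both lay below wild type. Without clrB deletion replicate 2 the trimmed list had 27 lower and 10 higher members. In bulk mycelium, fewer cells of a type and less RNA per cell cannot be told apart.

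The largest fall of the cellulose list was in an oxidative enzyme. The cellulose monooxygenase Cel61A (PDE_05633), which cuts cellulose chains by oxidation, read 4.51, 3.09 and 5.14 FPKM in the clrB deletion, against 227, 387 and 553 in the rcoA deletion and 4514, 4322 and 3896 in wild type (log2 difference -6.15, SE 0.29, adjusted p = 4e-07). Its mean was 91.7-fold lower in the clrB deletion than in the rcoA deletion, and both strains lay below wild type. Cellobiohydrolase II (Cel6A, PDE_07124), which releases cellobiose from chain ends, read 13.5, 11.4 and 9.64 FPKM in the clrB deletion, against 46.9, 62.8 and 90.8 in the rcoA deletion and 4099.5, 4029.8 and 3015 in wild type. It was low in both strains and 5.80-fold lower in the clrB deletion (adjusted p = 2.76e-05). The cellobiohydrolase Cel7A-2 (PDE_07945) read 259.6, 812 and 342 FPKM in the clrB deletion, with the high value in replicate 2, against 1220.0, 1334 and 1537 in the rcoA deletion and 7355, 7377 and 5499 in wild type. Its log2 difference was -1.70 (adjusted p = 0.00325), or -2.19 without clrB deletion replicate 2. These genes and those in the next paragraph that are not among the largest differences were chosen after their values were seen.

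The endoglucanases, which cut within cellulose chains, showed 2 orders, which differed in where the wild type stood. Cel7B (PDE_07929) read 43.0, 122 and 49.8 FPKM in the clrB deletion, against 541, 608 and 637 in the rcoA deletion and 2661, 2193 and 1351 in wild type, and PDE_09226 averaged 12.9 ± 1.95 FPKM in the clrB deletion, against 213 ± 68.5 in the rcoA deletion and 3057 ± 722 in wild type. For both, wild type was highest and the clrB deletion lowest, with log2 differences of -3.19 and -3.90. By contrast, PDE_02886, described as a xyloglucan-specific endo-beta-1,4-glucanase, read 11.8, 25.8 and 10.6 FPKM in the clrB deletion, against 714, 719 and 798 in the rcoA deletion and 55.3, 48.8 and 32.2 in wild type. PDE_06439, with the same description, read 20.6, 55.6 and 19.3 FPKM in the clrB deletion, against 1234, 1263 and 1352 in the rcoA deletion and 331, 303 and 214 in wild type. Both were highest in the rcoA deletion, with log2 differences of -5.55 and -5.46. Endoglucanase II (PDE_00507) averaged 14.3 ± 3.36 FPKM in the clrB deletion, against 301 ± 60.3 in the rcoA deletion and 511 ± 126 in wild type. A cellobiose dehydrogenase (PDE_04127), which can feed electrons to cellulose monooxygenases, averaged 18.9 ± 4.34 FPKM in the clrB deletion, against 329 ± 42.7 in the rcoA deletion and 46.9 ± 14.9 in wild type.

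Counted by means alone, the wild type lay above both deletion strains for 14 of the 25 lower genes of the trimmed cellulose list (56.0%). Over all 2266 genes lower in the clrB deletion it lay above both for 105 (4.63%), and below both for 1378 (60.8%). For 8 of the 25 the wild type lay between the strains, and for 3 below both. The corresponding counts for the 33 lower members of the hemicellulose list were 9 above both, 19 between and 5 below.

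Beta-glucosidases, which split cellobiose into glucose, went both ways. The GH1 family beta-glucosidase PDE_00579 read 6.45, 10.2 and 7.16 FPKM in the clrB deletion, against 295, 343 and 374 in the rcoA deletion and 1203, 1004 and 767 in wild type (log2 difference -5.26, adjusted p = 1.32e-07). Bgl1 (PDE_02736), annotated as beta-glucosidase I, had the opposite order, with 559.7, 1490.4 and 667 FPKM in the clrB deletion, against 228, 249 and 221 in the rcoA deletion and 580.5, 661 and 607 in wild type. Its log2 difference of 1.82 was 1.39 without clrB deletion replicate 2, its high library. A further putative beta-glucosidase (PDE_01565) was also higher in the clrB deletion, at 30.7 ± 7.70 FPKM against 1.77 ± 0.281 in the rcoA deletion (17.4-fold), and wild type stood at 31.7 ± 1.24. The putative cellulose monooxygenase PDE_00698 averaged 67.3 ± 45 FPKM in the clrB deletion, against 18 ± 0.626 in the rcoA deletion, and was higher at a log2 difference of 1.66, or 1.16 without replicate 2.

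**Figure D2:**
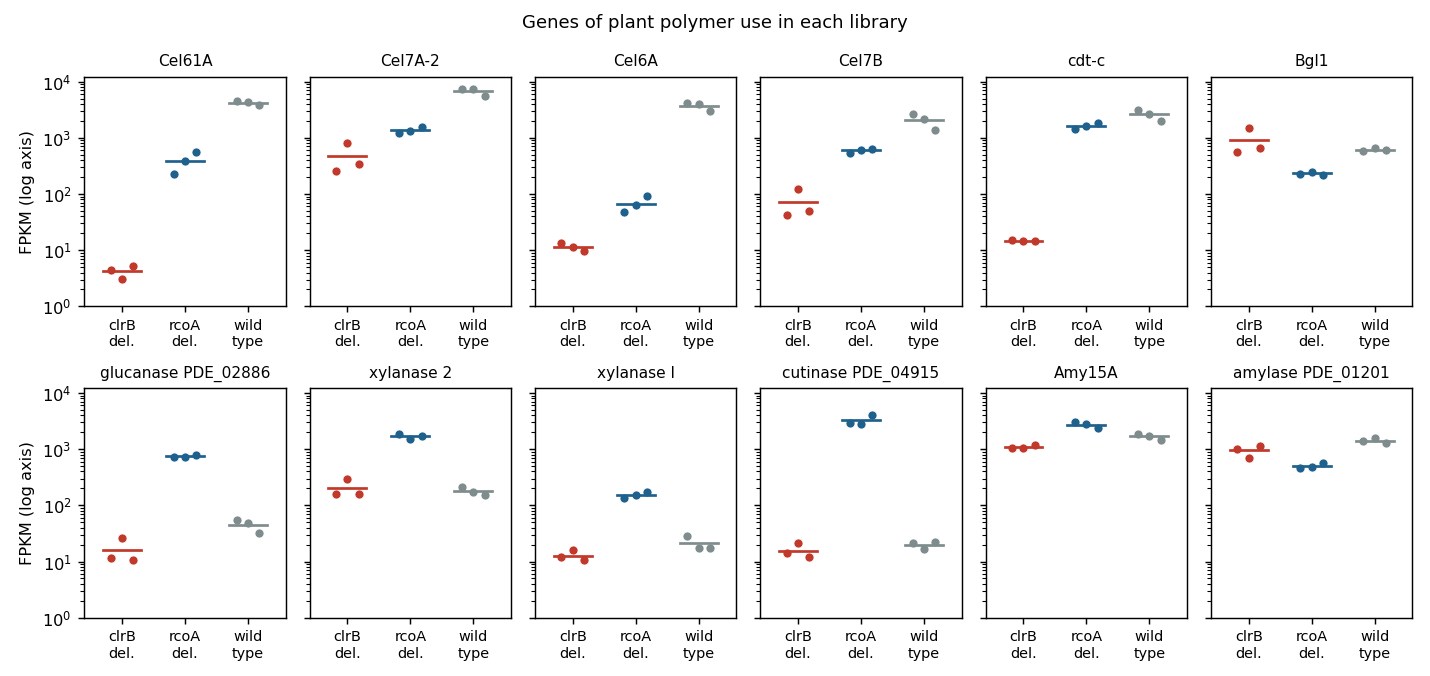
FPKM of 12 genes of plant polymer use (log axis) in each library of the clrB deletion, the rcoA deletion and the wild type, with a point per library and a bar at the mean of 3. Cel61A, Cel7A-2, Cel6A, Cel7B and cdt-c are lowest in the clrB deletion and highest in wild type, while glucanase PDE_02886, both xylanases, the cutinase and Amy15A are highest in the rcoA deletion.

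Genes of hemicellulose breakdown followed the same lean, with 33 of 68 tested members lower in the clrB deletion and 19 higher (48.5% and 27.9%, median log2 difference -0.47). Of these 68 genes, 9 are also in the cellulose list. Xylanase 2 (PDE_04478), which cuts the xylan backbone, read 157, 293 and 157 FPKM in the clrB deletion, against 1893, 1542 and 1732 in the rcoA deletion and 215, 175 and 152 in wild type (log2 difference -3.14, SE 0.24, adjusted p = 6.7e-06). The clrB deletion and the wild type overlapped, and every rcoA deletion library stood above both. Xylanase I (PDE_05210) averaged 12.8 ± 2.68 FPKM in the clrB deletion, against 152 ± 18.8 in the rcoA deletion and 21.0 ± 6.40 in wild type. The GH10 xylanase PDE_08094 instead was highest in wild type, at 56.1, 248 and 71.8 FPKM in the clrB deletion, against 271, 348 and 361 in the rcoA deletion and 2368, 2199 and 1344 in wild type. Its log2 difference was -1.68 (adjusted p = 0.0144), or -2.33 without clrB deletion replicate 2, and it was not called without clrB deletion replicate 3 (log2 difference -1.45, adjusted p = 0.052). A putative acetyl xylan esterase (PDE_09278), which removes acetyl groups from xylan, averaged 71.4 ± 49.8 FPKM in the clrB deletion, against 688 ± 73.5 in the rcoA deletion. On the other side, a putative alpha-1,6-mannanase (PDE_05286) averaged 317 ± 159.6 FPKM in the clrB deletion, against 32.3 ± 8.81 in the rcoA deletion (9.82-fold higher). Enzymes of this description act on mannans of fungal walls.

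Pectin genes were split, with 10 of 26 tested members lower and 8 higher (38.5% and 30.8%). The higher count was 5 without clrB deletion replicate 3. A putative polygalacturonase (PDE_03218), which cuts the pectin backbone, read 15.2, 26.9 and 18.4 FPKM in the clrB deletion, against 445, 413 and 418 in the rcoA deletion and 96.5, 77.5 and 68.8 in wild type, a log2 difference of -4.37. A putative rhamnogalacturonase (PDE_05931) was higher in the clrB deletion, at 6.48 ± 1.13 FPKM in the clrB deletion, against 1.17 ± 0.0850 in the rcoA deletion and 13.9 ± 1.84 in wild type.

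Starch genes leaned the other way by count in the list as drawn. Of 23 tested members 14 were higher in the clrB deletion and 5 lower (60.9% and 21.7%, median log2 difference 0.47), but the list shares 7 genes with the fungal cell wall list. Restricted to starch after the values were seen, 11 members remained, with 6 higher and 4 lower (54.5% and 36.4%). Both shares were above those over all genes. Among these 11, 1 was at least 2-fold higher and 4 at least 2-fold lower. Amy15A (PDE_09417), a glucoamylase that splits glucose off starch chains, read 1032, 1069 and 1176 FPKM in the clrB deletion, against 3038, 2775 and 2386 in the rcoA deletion and 1845, 1716 and 1475 in wild type (log2 difference -1.32, adjusted p = 8.21e-05). A putative glucoamylase (PDE_05527) and a putative alpha-glucosidase (PDE_03966) were lower as well, with log2 differences of -1.33 and -3.48. Alpha-amylases, which cut starch internally, did not follow. PDE_01201 averaged 949.6 ± 231 FPKM in the clrB deletion, against 507 ± 48.2 in the rcoA deletion, and was higher by 0.88 on the log2 scale. PDE_04684 was not called and averaged 479 ± 18 FPKM in the clrB deletion, against 517 ± 54.0 in the rcoA deletion. A protein with starch binding and chitin binding domains (PDE_01354) averaged 192 ± 17.5 FPKM in the clrB deletion, against 44.9 ± 3.73 in the rcoA deletion and 1019 ± 176 in wild type.

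Sugar transporters gave 23 of 61 members higher and 20 lower (37.7% and 32.8%), beside 35.2% and 24.9% over all genes. The counts were 21 higher and 22 lower with trimmed mean scaling or equal medians, and 18 and 20 with quantile normalization. Over all genes the share of higher calls also fell under these scalings. Among genes with a mean of at least 5 FPKM, 17 sugar transporters were higher and 19 lower. The cellodextrin transporter cdt-c (PDE_00607), which imports the products of cellulose digestion, read 15.1, 14.7 and 14.7 FPKM in the clrB deletion, against 1461, 1636 and 1809 in the rcoA deletion and 3106, 2694 and 2010.0 in wild type (log2 difference -6.69, SE 0.16, adjusted p = 9.5e-09). Its mean was 110.0-fold lower in the clrB deletion, with little spread between the libraries of that strain. PDE_03140, described as a sugar:H+ symporter, averaged 0.747 ± 0.155 FPKM in the clrB deletion, against 30.5 ± 5.03 in the rcoA deletion, with wild type at 0.717 ± 0.248. The transporter with the highest mean, PDE_03313, averaged 2769 ± 626 FPKM in the clrB deletion, against 745 ± 154 in the rcoA deletion (3.72-fold higher). PDE_00753, described as a putative cellodextrin transporter CdtD, averaged 247 ± 179 FPKM in the clrB deletion, against 535 ± 23.7 in the rcoA deletion (adjusted p = 0.0172). It was not called without clrB deletion replicate 1 (adjusted p = 0.0578) or 3 (adjusted p = 0.0629).

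Cutinases and lipases gave 12 of 26 members higher and 7 lower (46.2% and 26.9%), or 10 and 9 with trimmed mean scaling or equal medians and 9 and 8 with quantile normalization. The list held the largest fall among described genes with at least 10 FPKM in either strain. The putative cutinase PDE_04915, an esterase for the waxy polyester of plant surfaces, read 13.9, 21.1 and 12 FPKM in the clrB deletion, against 2868, 2828 and 4015 in the rcoA deletion and 21.6, 16.4 and 22.0 in wild type (log2 difference -7.62, SE 0.22, adjusted p = 3.11e-08). The clrB deletion overlapped the wild type, and the rcoA deletion stood 207-fold above the clrB deletion. A second putative cutinase (PDE_03294) was higher in the clrB deletion, at 920.3 ± 197 FPKM against 156 ± 23.5 in the rcoA deletion, with wild type at 1052 ± 199.98.

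Of the regulators named here, XlnR and CreA differed by less than 2-fold, and some others by more. XlnR (PDE_07674), the activator of xylanase genes, averaged 49.4 ± 8.55 FPKM in the clrB deletion, against 31.9 ± 0.553 in the rcoA deletion, and was higher by 0.60 on the log2 scale (adjusted p = 0.00435). The carbon catabolite repressor CreA (PDE_03168), the counterpart of Mig1, read 395, 384 and 393 FPKM in the clrB deletion, against 754, 778 and 785 in the rcoA deletion and 352, 349.8 and 303 in wild type. Its mean was 1.98-fold lower in the clrB deletion (adjusted p = 3.52e-05). Of the 7 other genes with CreA/MIG among their descriptions, PDE_07134 was lower (log2 difference -1.55), PDE_08282 higher (1.83) and 3 were not called. PDE_03936 differed by 0.44 and lost its call under the other scalings. PDE_05006 differed by -0.32 and lost its call without clrB deletion replicate 1 or 3 or rcoA deletion replicate 1 or 2 (adjusted p 0.0524 to 0.0982). A gene described as the regulator CAT8 (PDE_09448), in yeast an activator of growth on non-sugar carbon, averaged 9.25 ± 0.540 FPKM in the clrB deletion, against 84.4 ± 1.54 in the rcoA deletion (9.12-fold lower).

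**Figure D3:**
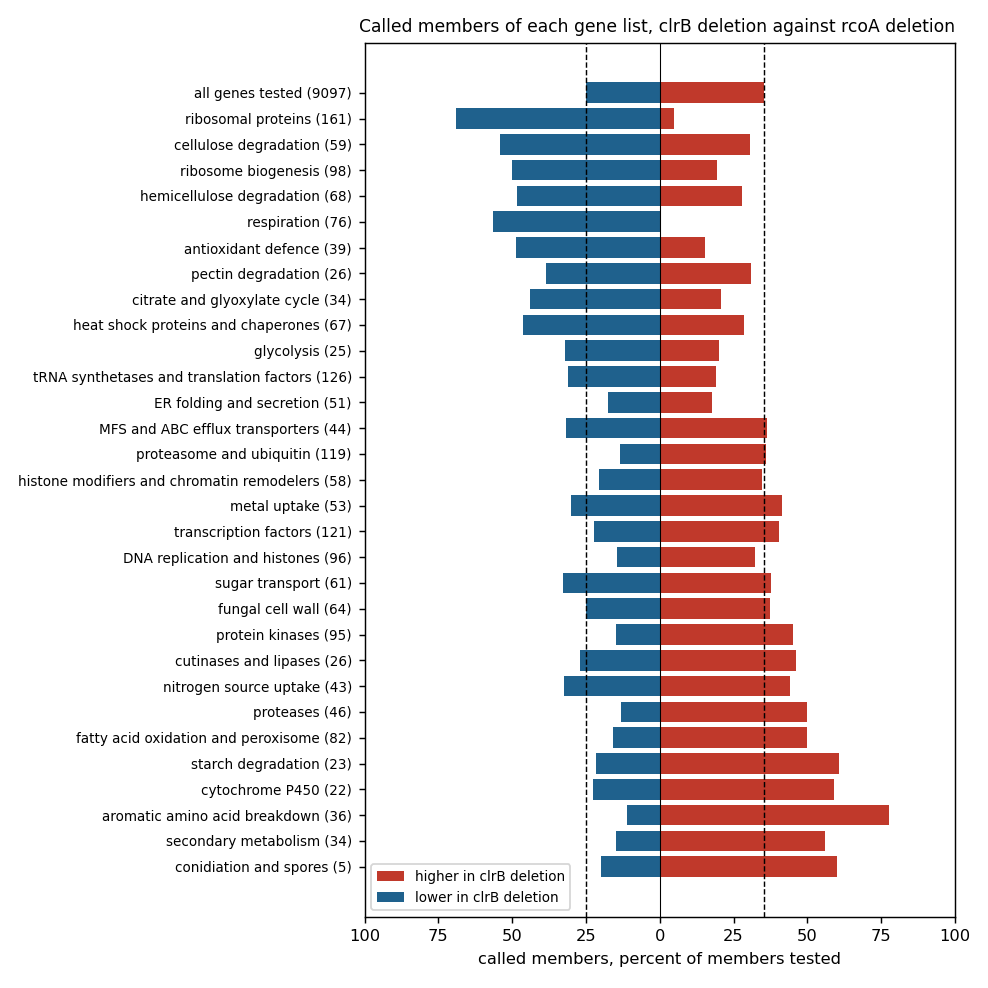
Share of tested members of each of the 30 gene lists that were higher (right) or lower (left) in the clrB deletion than in the rcoA deletion, with the number tested in brackets and the lists ordered by median log2 difference. Dashed lines mark the shares over all genes tested, 35.2% higher and 24.9% lower.

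Genes of secondary metabolism were higher in the clrB deletion, many of them against values near 0 in the rcoA deletion. Of 34 tested members 19 were higher and 5 lower (55.9% and 14.7%), with a median log2 difference of 0.94. With quantile normalization the counts were 16 and 8. A gene described as trichodiene synthase (PDE_01717), an enzyme that folds farnesyl diphosphate into a sesquiterpene, read 215, 169 and 289.8 FPKM in the clrB deletion, against 0.06, 0 and 0 in the rcoA deletion and 81.0, 134 and 134 in wild type (log2 difference 7.75, SE 0.23, adjusted p = 3.45e-08). The next identifier, PDE_01718, described as farnesyl diphosphate synthase, which makes that substrate, read 149.5, 203 and 229.8 FPKM in the clrB deletion, against 0.48, 1.09 and 0.96 in the rcoA deletion and 106, 154 and 129.5 in wild type. PDE_08155, with naphthopyrone polyketide synthase among its descriptions, averaged 638 ± 62.0 FPKM in the clrB deletion, against 53.5 ± 2.17 in the rcoA deletion (11.9-fold higher). On the other side, PDE_03369, described as an aflatoxin aldehyde reductase, averaged 36.4 ± 4.50 FPKM in the clrB deletion, against 493 ± 147 in the rcoA deletion (13.5-fold lower). Cytochrome P450 genes, which often oxidise such products, gave 13 of 22 higher and 5 lower (59.1% and 22.7%, median 0.77), or 9 and 7 with quantile normalization. The P450 gene with the highest mean (PDE_06972) was lower in the clrB deletion, at 168 ± 2.91 FPKM against 975 ± 142 in the rcoA deletion.

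Fungal genes for a secondary metabolite often lie side by side on a chromosome. The identifiers of the table carry running numbers, and runs of consecutive numbers in which every gene was called and differed at least 4-fold in the same direction were counted, with a minimum run of 4 genes. No gene coordinates were used, so that neighbourhood on the chromosome was not checked. Among the 496 genes at least 4-fold higher in the clrB deletion, 9 such runs held 65 genes. Among the 253 genes at least 4-fold lower there were 0 runs, and the longest had 3 genes. The rule for runs was set after the values were seen and uses these same differences, so the runs are a description.

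The longest run, PDE_00792 to PDE_00809, held 18 genes with a median log2 difference of 5.40 (2.43 to 7.41). Its median FPKM was 68.9, 19.5 and 65.3 in the clrB deletion libraries, against 0.095, 0.055 and 0.055 in the rcoA deletion and 21.3, 31.5 and 24.4 in wild type. Replicate 2 of the clrB deletion lay just under the wild type libraries while replicates 1 and 3 stood above them, and without replicate 2 the median difference was 5.98. Descriptions in this run include brevianamide F synthase, an enzyme that joins tryptophan and proline, prenyl transferases that modify such products, and verruculogen synthase. PDE_00794, described as verruculogen synthase, read 267, 91.6 and 247 FPKM in the clrB deletion, against 0.18, 0.06 and 0 in the rcoA deletion and 62.8, 104 and 83.3 in wild type. PDE_00793, described as brevianamide F synthase, had the smallest difference of the run, at 26.3, 12.9 and 26.1 FPKM in the clrB deletion, against 2.54, 3.37 and 3.21 in the rcoA deletion (7.16-fold). PDE_00797, described as such a prenyl (dimethylallyl) transferase, read 171, 50.03 and 149.8 FPKM in the clrB deletion, against 0.09, 0 and 0 in the rcoA deletion.

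The run PDE_09999 to PDE_10010 held 12 genes with a median log2 difference of 5.49, or 6.06 without clrB deletion replicate 2. It includes genes described as paspaline synthase (PDE_10000) and geranylgeranyl diphosphate synthase (PDE_10001), which in other fungi act in the synthesis of indole diterpenes. PDE_10000 read 56.3, 21.7 and 48.7 FPKM in the clrB deletion and was listed at 0 in all rcoA deletion libraries, and it read 21.8, 33.1 and 27.9 in wild type. PDE_10001 read 69.3, 21.6 and 62.7 FPKM in the clrB deletion, against 0.06, 0 and 0.12 in the rcoA deletion and 16.8, 25.4 and 23.0 in wild type. The run PDE_01064 to PDE_01071 held 8 genes (median 5.16, or 5.73 without that replicate), among them another prenyl transferase (PDE_01066) that averaged 293 ± 150.4 FPKM in the clrB deletion, against 3.26 ± 1.61 in the rcoA deletion. Smaller runs carried a stearoyl-CoA desaturase description and a hybrid polyketide and peptide synthase description (PDE_02138 to PDE_02142, median 4.07), and a methyltransferase description (PDE_09240 to PDE_09244, median 4.48). Runs of 4 genes were PDE_06879 to PDE_06882 (median 3.60) and PDE_07431 to PDE_07434 (median 3.92). In the last of these PDE_07434 read 80.1, 7.83 and 63.0 FPKM in the clrB deletion, against 0.58, 1.13 and 1.34 in the rcoA deletion, and its log2 difference of 4.17 was 5.18 without replicate 2 and 3.58 without replicate 1.

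A run with fatty acid synthase descriptions differed from these in its libraries. PDE_01216 to PDE_01220 had a median FPKM of 79.4, 383 and 165 in the clrB deletion, against 15.2, 15.7 and 16 in the rcoA deletion and 87.5, 138 and 75.4 in wild type. Here clrB deletion replicate 2 was the highest library, and without it the median log2 difference was 2.37 in place of 3.03. The alpha subunit gene PDE_01217 read 79.4, 520.4 and 165 FPKM in the clrB deletion, against 14.9, 15.7 and 16 in the rcoA deletion, with a log2 difference of 3.53. This was 2.81 without replicate 2 and 4.15 without replicate 1.

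**Figure D4:**
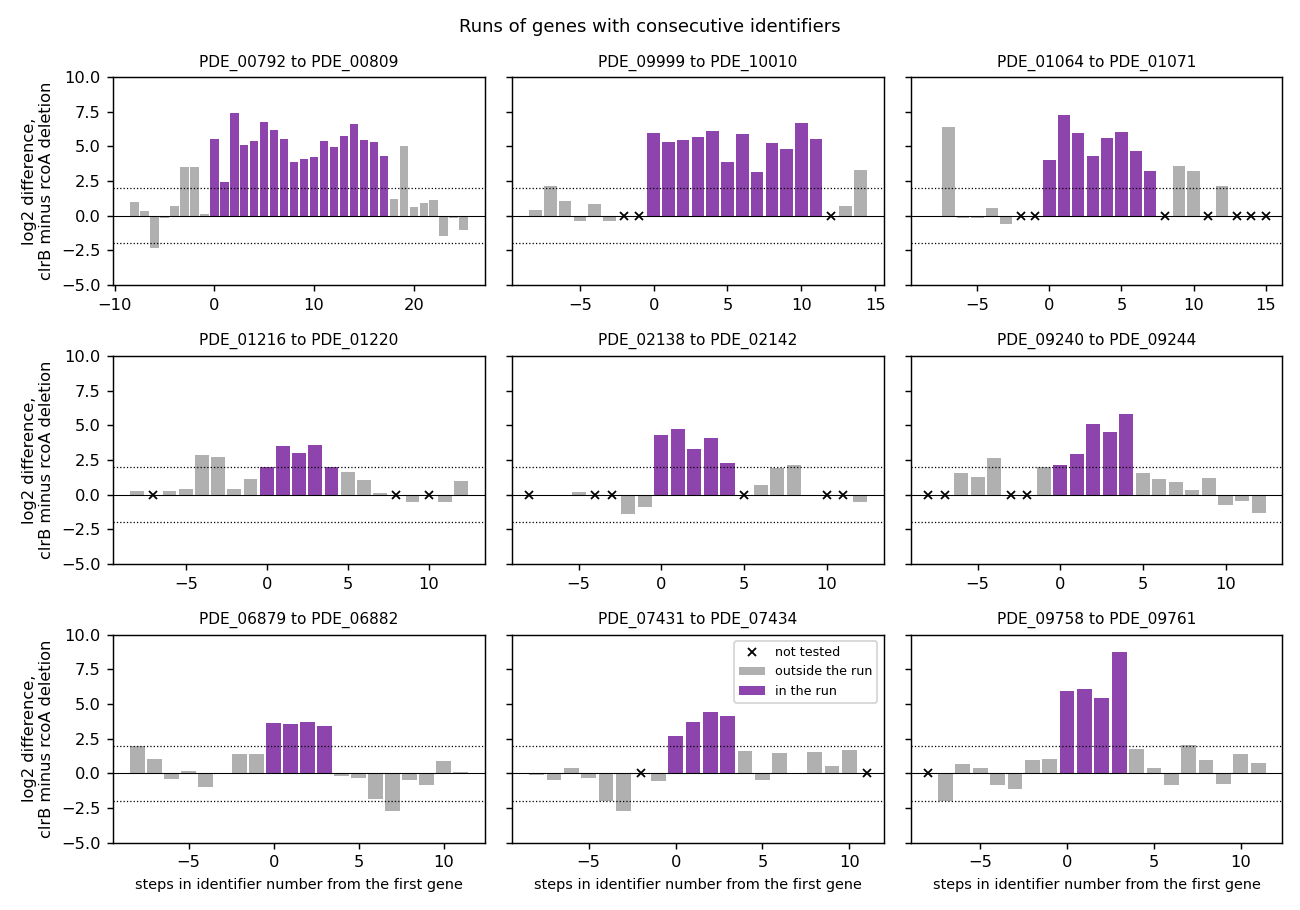
Log2 difference, clrB deletion minus rcoA deletion, of genes in 9 runs of consecutive identifiers (purple) and of the identifiers around them (grey), along the steps in identifier number from the first gene of the run. Crosses mark genes not tested for their low mean, and dotted lines mark a 4-fold difference in each direction. The run of 18 genes reaches 7.41, and the run of 4 genes that ends with PDE_09761 reaches 8.76.

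Markers of asexual spore formation were also apart, although all samples are labelled mycelia. Of 5 tested members of the conidiation list 3 were higher in the clrB deletion and 1 lower. BrlA (PDE_00087), the regulator that starts formation of the spore-bearing heads, read 149, 33.4 and 121 FPKM in the clrB deletion, against 13.0, 12.4 and 13.7 in the rcoA deletion and 18.2, 27.9 and 28.5 in wild type (log2 difference 2.61, SE 0.47, adjusted p = 0.00117). The clrB deletion replicates 1 and 3 were high and replicate 2 was just above the wild type libraries, and without replicate 2 the log2 difference was 3.27. Both genes with the description scytalone dehydratase, which acts on the way to melanin, stood at or near 0 in the rcoA deletion. PDE_04496 read 200.2, 45 and 152 FPKM in the clrB deletion, against 0.54, 0.45 and 0.45 in the rcoA deletion and 36.5, 56.1 and 43.4 in wild type, and its log2 difference of 6.25 was 6.89 without replicate 2. PDE_09236 averaged 5.33 ± 0.640 FPKM in the clrB deletion and was listed at 0 in all rcoA deletion libraries. FlbD (PDE_03008), which acts upstream of BrlA in aspergilli, was not called and averaged 323 ± 70.6 FPKM in the clrB deletion, against 272 ± 42.9 in the rcoA deletion. A second gene described as BrlA (PDE_00079) was not tested for its low level. The member that was lower, described as the spore wall protein DIT1 (PDE_01188), read 1.53, 3.97 and 1.36 FPKM in the clrB deletion, against 25.8, 10.5 and 2.82 in the rcoA deletion. Its libraries overlapped, and it was not called without clrB deletion replicate 1 or 3, rcoA deletion replicate 1 or 2 or wild type replicate 2. Its log2 difference of -1.77 was -1.10 without rcoA deletion replicate 1 and -2.51 without rcoA deletion replicate 3. No gene is described as AbaA, WetA or a hydrophobin among those tested. In the 3 longest runs above, replicates 1 and 3 of the clrB deletion were high together with BrlA, and the part of spore-forming cells in those differences was not tested.

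Members of the list for aromatic amino acid breakdown were mostly higher in the clrB deletion. Of 36 tested members 28 were higher and 4 lower (77.8% and 11.1%), with a median log2 difference of 0.91. The list was drawn by words and also caught genes described as both fumitremorgin C synthase and 3-hydroxyphenylacetate 6-hydroxylase. Of these, PDE_00808 lies in the longest run above (log2 difference 5.31), and PDE_02824 was lower (-1.39). Such genes were not removed from the counts. The counts were 26 higher and 4 or 5 lower under the other scalings, and 28 and 4 without clrB deletion replicate 2. The median FPKM of the list was 32.5, 38.5 and 32.1 in the clrB deletion libraries, against 14.8, 12.9 and 13.2 in the rcoA deletion and 34.8, 32.6 and 33.5 in wild type. The clrB deletion and wild type libraries overlapped, and the rcoA deletion libraries lay below both.

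The largest difference of the list was in tyrosine breakdown. PDE_09761, described as 4-hydroxyphenylpyruvate dioxygenase, which makes homogentisate, read 2377, 6379 and 2884 FPKM in the clrB deletion, against 9.88, 8.60 and 4.17 in the rcoA deletion and 4959, 5087 and 3815 in wild type (log2 difference 8.76, SE 0.39, adjusted p = 2.81e-07). Its mean was 514-fold higher in the clrB deletion, and replicate 2 was the highest of that strain. It ends a run of consecutive identifiers with an aromatic amino acid aminotransferase (PDE_09759), which makes its substrate from tyrosine, at 359 ± 206 FPKM in the clrB deletion, against 3.80 ± 0.601 in the rcoA deletion. The others are described as phenol 2-monooxygenase (PDE_09758), which averaged 498 ± 227 FPKM in the clrB deletion, against 6.48 ± 0.591 in the rcoA deletion, and DOPA 4,5-dioxygenase (PDE_09760), which averaged 571 ± 235 FPKM in the clrB deletion, against 11.3 ± 1.16 in the rcoA deletion. In this run of 4 genes the wild type mean was above the clrB deletion for every member. The later steps, given by genes named after their values were seen, differed less. Homogentisate 1,2-dioxygenase HmgA (PDE_08906) averaged 64.1 ± 7.71 FPKM in the clrB deletion, against 31.4 ± 11.8 in the rcoA deletion (2.04-fold higher), and the fumarylacetoacetase PDE_08907 averaged 90.9 ± 6.56 FPKM in the clrB deletion, against 52.9 ± 18.5 in the rcoA deletion (1.72-fold higher). With identifiers next to or near these, the maleylacetoacetate isomerase PDE_08908 and the 4-hydroxyphenylpyruvate dioxygenase PDE_08904, were 8.99-fold and 8.68-fold higher.

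Tryptophan breakdown by way of kynurenine was apart too. PDE_02454, described as indoleamine 2,3-dioxygenase, which opens the indole ring, read 207, 261 and 258 FPKM in the clrB deletion, against 0.42, 0.38 and 0.38 in the rcoA deletion and 384, 397 and 337 in wild type (log2 difference 7.44, adjusted p = 9.7e-10). The next identifier, PDE_02455, described as kynureninase, read 168, 223 and 175 FPKM in the clrB deletion, against 18.1, 17.6 and 19.7 in the rcoA deletion and 199, 177 and 154 in wild type. Of 3 further genes with the dioxygenase description, PDE_05907 averaged 363 ± 132 FPKM in the clrB deletion, against 36.1 ± 6.15 in the rcoA deletion, and PDE_05885 averaged 25.8 ± 10.2 FPKM in the clrB deletion, against 0.990 ± 0.298 in the rcoA deletion. The remaining gene, PDE_02071, had the reverse order and averaged 59.0 ± 13.4 FPKM in the clrB deletion, against 217 ± 7.74 in the rcoA deletion (3.67-fold lower).

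Ribosomal protein genes were lower in the clrB deletion for the most part. Of 161 tested members 111 were lower and 8 higher (68.9% and 4.97%), with a median log2 difference of -0.84. Split by name after the values were seen, 86 members carry names of the cytosolic ribosome, and 78 of these were lower and 2 higher (90.7% and 2.33%). Their log2 differences lay close together, with a median of -1.10 and quartiles of -1.25 and -0.97. Their median FPKM was 273, 135 and 217 in the clrB deletion libraries, against 415, 424 and 448 in the rcoA deletion and 224, 168 and 185 in wild type. The rcoA deletion libraries were above all others, and replicate 2 of the clrB deletion was the lowest. Without that library the full list had a median log2 difference of -0.6. The cytosolic counts were then again 78 lower and 2 higher, but the cytosolic median was -0.84. It was -1.35 without clrB deletion replicate 1. Against the wild type, the median difference of the cytosolic genes was 0.03 for the clrB deletion, with its low replicate 2 included. It was 1.14 for the rcoA deletion, and the 2 values share the wild type libraries.

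The cytosolic member with the highest mean of the list, S27Ae (PDE_04897), a ribosomal protein made as a fusion with ubiquitin, read 1238, 578 and 889.6 FPKM in the clrB deletion, against 1660.0, 1653 and 1733 in the rcoA deletion and 933, 773 and 791 in wild type (log2 difference -0.97, adjusted p = 0.00734). The 54 members with names of bacterial type, as in mitochondrial ribosomes, had 24 lower and 2 higher and a median of -0.26. The lower count was 15 without clrB deletion replicate 2 and 14 without rcoA deletion replicate 2 or 3. The largest differences of the list belonged to genes with L36e among several descriptions that do not match each other. PDE_07353 averaged 76.4 ± 26.5 FPKM in the clrB deletion, against 0.573 ± 0.116 in the rcoA deletion, and PDE_08442 averaged 3.89 ± 0.390 FPKM in the clrB deletion, against 40.3 ± 1.27 in the rcoA deletion. Neither is read as a ribosomal protein gene here.

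Ribosome assembly leaned the same way. Of 98 tested ribosome biogenesis genes 49 were lower and 19 higher (50% and 19.4%, median -0.48). For all 49 lower genes the wild type mean lay below both deletion strains, compared with 60.8% of lower genes at large. The median FPKM of the list was 16.2, 12.1 and 16.3 in the clrB deletion, against 17.9, 23.4 and 25.8 in the rcoA deletion and 10.3, 10.2 and 9.62 in wild type. Nucleolar protein 56 (PDE_04970), a core protein of the particles that modify ribosomal RNA, averaged 64.8 ± 17.4 FPKM in the clrB deletion, 118 ± 19.8 in the rcoA deletion and 37.4 ± 1.74 in wild type. The rRNA processing protein CGR1 (PDE_06867) was 3.37-fold lower in the clrB deletion than in the rcoA deletion. Aminoacyl-tRNA synthetases and translation factors gave 39 of 126 lower and 24 higher (31.0% and 19.0%, median -0.10), or 35 and 33 without clrB deletion replicate 2. Elongation factor 1-beta (PDE_00623) was 2.27-fold lower, and elongation factor 1-alpha (PDE_02596) averaged 2639 ± 673 FPKM in the clrB deletion, against 3889.9 ± 164 in the rcoA deletion. The call of PDE_02596 (adjusted p = 0.0332) was lost without any of clrB deletion replicates 2 and 3, rcoA deletion replicates 1 to 3 and wild type replicate 3, with an adjusted p of 0.0512 to 0.0797.

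**Figure D5:**
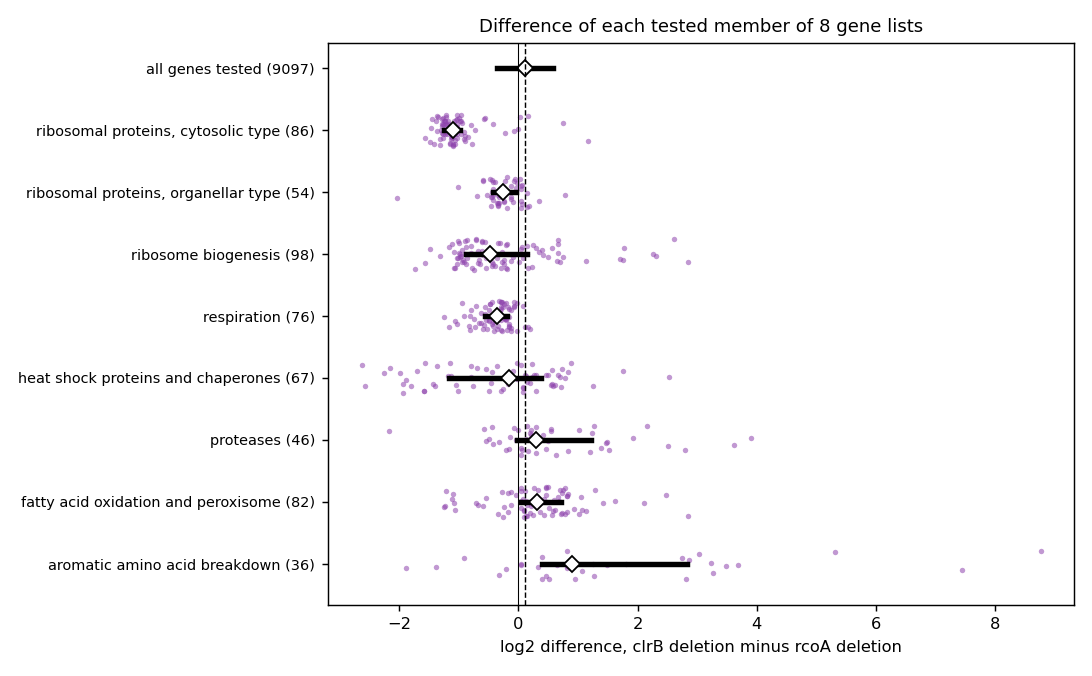
Log2 difference, clrB deletion minus rcoA deletion, of every tested member of 8 gene lists (points, spread vertically for display only), with diamonds at the medians and thick bars from the lower to the upper quartile, and the median of all genes as a dashed line. Cytosolic ribosomal proteins cluster around -1.10, while aromatic amino acid breakdown has a median of 0.91 and reaches 8.76.

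Respiration genes were also lower, by smaller amounts. Of 76 tested members 43 were lower and 0 higher by limma (56.6% and 0%), with a median log2 difference of -0.35 and quartiles of -0.56 and -0.19. At an unadjusted p under 0.05 the counts were 45 lower and 0 higher. Without clrB deletion replicate 2 there were 37 lower and 1 higher, and with the other scalings 47 to 59 lower and 0 higher. The lower count was 36 without clrB deletion replicate 3, 33 without rcoA deletion replicate 2 and 34 without rcoA deletion replicate 3. Only 4 of the 43 differed at least 2-fold. A subunit of succinate dehydrogenase (PDE_09828), which feeds electrons from the citrate cycle into the respiratory chain, read 67.4, 51.7 and 57.6 FPKM in the clrB deletion, against 139, 133 and 149 in the rcoA deletion and 53.8, 39.5 and 56.4 in wild type. The ATP synthase subunit alpha (PDE_06476), the member with the highest mean, averaged 462 ± 16 FPKM in the clrB deletion, against 564 ± 5.86 in the rcoA deletion. Its adjusted p of 0.0211 became 0.0768 without clrB deletion replicate 3 and 0.0681 without rcoA deletion replicate 2.

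Central carbon metabolism was mixed. In the citrate and glyoxylate cycle list 15 of 34 members were lower and 7 higher (44.1% and 20.6%, median -0.20). The higher count was 11 without clrB deletion replicate 2, and the lower count 9 without rcoA deletion replicate 2. A citrate synthase (PDE_09135) was 3.61-fold lower in the clrB deletion, at 80.7 ± 11.1 FPKM against 291 ± 40.0 in the rcoA deletion. Isocitrate lyase (PDE_08297), which starts the glyoxylate bypass used for growth on fatty acids and acetate, was 2.25-fold higher, at 141 ± 26.1 FPKM in the clrB deletion, against 62.7 ± 6.63 in the rcoA deletion. In glycolysis 8 of 25 members were lower and 5 higher, and the higher count was 3 without clrB deletion replicate 1 or 3. Hexokinase genes, for the first step of glucose use, went both ways, with PDE_07688 3.38-fold and PDE_00878 2.31-fold higher and PDE_03370 2.64-fold lower in the clrB deletion. Fatty acid oxidation and peroxisome genes leaned to the clrB deletion, with 41 of 82 higher and 13 lower (50% and 15.9%, median 0.31). PDE_03982, with acyl-CoA oxidase among its descriptions, was 7.31-fold higher, at 128 ± 5.98 FPKM in the clrB deletion, against 17.5 ± 6.27 in the rcoA deletion. An acyl-CoA dehydrogenase (PDE_05566), the member with the highest mean, averaged 613 ± 108 FPKM in the clrB deletion, against 353 ± 19.4 in the rcoA deletion.

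Heat shock proteins and chaperones were higher in the rcoA deletion where they differed most. Of 67 tested members 31 were lower in the clrB deletion and 19 higher (46.3% and 28.4%, median -0.16). At least 2-fold, 21 of the 67 were lower and 3 of the 67 higher. Over all 9097 genes tested, 909 were lower (9.99%) and 1269 higher (13.9%) at this limit. An HSP70 gene (PDE_02379), a chaperone that refolds damaged protein, read 380.2, 341 and 362 FPKM in the clrB deletion, against 2113, 2408 and 2226 in the rcoA deletion and 279.9, 263 and 245 in wild type (log2 difference -2.63, SE 0.11, adjusted p = 2e-07). The HtpG gene (PDE_09149), of the HSP90 family, read 263, 227 and 247 FPKM in the clrB deletion, against 1331, 1536 and 1527 in the rcoA deletion and 199, 187 and 186 in wild type. The mitochondrial-type chaperones GroEL (PDE_04315) and DnaK (PDE_03760), named after their values were seen, were 3.96-fold and 3.84-fold lower in the clrB deletion. In a small heat shock gene (PDE_02505) both strains stood far above wild type, at 1479 ± 292 FPKM in the clrB deletion, 3822 ± 891 in the rcoA deletion and 39.8 ± 4.56 in wild type. The same order held for the HSP70 exchange factor Fes1 (PDE_01090), which averaged 277 ± 80.6 FPKM in the clrB deletion, against 742 ± 129 in the rcoA deletion and 17.1 ± 1.16 in wild type. The gene described as heat shock transcription factor (PDE_05764) was higher in the clrB deletion, at 43.6 ± 1.72 FPKM against 25.8 ± 0.979 in the rcoA deletion.

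Antioxidant genes gave 19 of 39 members lower in the clrB deletion and 6 higher (48.7% and 15.4%, median -0.29). The mitochondrial alternative oxidase (PDE_08849), which passes electrons to oxygen without pumping protons, read 43.0, 45.3 and 73.9 FPKM in the clrB deletion, against 652, 1185 and 1173 in the rcoA deletion and 6.29, 3.04 and 7.04 in wild type (log2 difference -4.18, adjusted p = 7.68e-06). Both strains stood above the wild type, and the clrB deletion was 18.5-fold below the rcoA deletion. A catalase (PDE_05708) was higher in the clrB deletion, at 31.1 ± 1.10 FPKM against 7.41 ± 2.14 in the rcoA deletion, with wild type at 12.4 ± 1.17. A catalase-peroxidase (PDE_07249), the member with the highest mean, averaged 844 ± 259 FPKM in the clrB deletion, against 1442 ± 239.6 in the rcoA deletion, and was not called with quantile normalization.

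Proteases, listed by words in their descriptions whatever their place in the cell, were more often higher in the clrB deletion. Of 46 members 23 were higher and 6 lower (50% and 13.0%, median 0.29). These counts were 19 and 8 with trimmed mean scaling or equal medians and 18 and 8 with quantile normalization. The lower count was 3 without rcoA deletion replicate 1. A tripeptidyl-peptidase (PDE_01353), which trims peptides from their amino end, read 84.0, 32.8 and 67.2 FPKM in the clrB deletion, against 3.62, 2.33 and 2.71 in the rcoA deletion and 80.2, 61.9 and 67.7 in wild type. Another gene of that description (PDE_01983) had the reverse order and averaged 2.66 ± 0.356 FPKM in the clrB deletion, against 15.6 ± 3.06 in the rcoA deletion. Genes of the fungal cell wall gave 24 of 64 higher and 16 lower (37.5% and 25%), close to the shares over all genes. Chitinase II (PDE_08122), which cuts the chitin of fungal walls, read 12664, 2266 and 12038 FPKM in the clrB deletion, against 1260.3, 1429.7 and 1882 in the rcoA deletion and 2349, 2857 and 4864 in wild type, and its log2 difference of 2.22 was 3.04 without clrB deletion replicate 2. A putative chitinase (PDE_01573) had the reverse order, at 21.3 ± 4.09 FPKM in the clrB deletion, against 855 ± 74.0 in the rcoA deletion (40.1-fold lower). The putative exo-beta-1,3-glucanase PDE_08139 read 1163, 225 and 1472 FPKM in the clrB deletion, against 29.9, 49.8 and 86.2 in the rcoA deletion, with a log2 difference of 3.82, or 4.67 without replicate 2.

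Uptake of nitrogen and metals went both ways. Nitrogen uptake genes gave 19 of 43 higher in the clrB deletion and 14 lower (44.2% and 32.6%, median 0.29). A gene described as a yeast amino acid transporter (PDE_01802) read 1404, 849 and 1618 FPKM in the clrB deletion, against 41.5, 70.4 and 128 in the rcoA deletion and 746, 938 and 1135 in wild type (16.1-fold higher). An oligopeptide transporter (PDE_06899) was 12-fold higher, while an ammonium transporter (PDE_03587) was 13.9-fold lower and averaged 2.62 ± 0.377 FPKM in the clrB deletion, against 36.2 ± 1.77 in the rcoA deletion. Metal uptake genes gave 22 of 53 higher and 16 lower (41.5% and 30.2%), which turned to 13 and 19 with quantile normalization. An iron transport multicopper oxidase (PDE_09492) read 99.0, 19.9 and 84.0 FPKM in the clrB deletion, against 3.16, 3.11 and 2.38 in the rcoA deletion and 10.3, 22.2 and 16.6 in wild type, and its log2 difference of 3.86 was 4.58 without clrB deletion replicate 2. PDE_05715, with a zinc transporter among its descriptions, had the reverse order, at 175, 286 and 208 FPKM in the clrB deletion, against 868, 1155 and 1154 in the rcoA deletion and 34.3, 37.8 and 44.8 in wild type.

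Some of the largest differences by rank belonged to none of these lists. PDE_03255, described as the alpha subunit of the nascent polypeptide-associated complex, which binds new chains at the ribosome, read 2332, 2421 and 3120.0 FPKM in the clrB deletion, against 3.35, 4.48 and 7.79 in the rcoA deletion and 1258, 1376 and 2190.4 in wild type (log2 difference 8.78, SE 0.28, adjusted p = 5.1e-08). Next to the scytalone dehydratase PDE_04496 by identifier, the reductase PDE_04495 read 890.2, 252 and 729 FPKM in the clrB deletion, against 2.84, 1.43 and 2.84 in the rcoA deletion and 190.2, 279 and 253 in wild type. Its clrB deletion replicate 2 was low, as for PDE_04496. On the other side, PDE_04128, described as cysteine desulfurase, which takes sulfur from cysteine, read 8.42, 4.17 and 7.55 FPKM in the clrB deletion, against 538, 535 and 476 in the rcoA deletion and 21.7, 16.3 and 41.4 in wild type (log2 difference -6.11). PDE_04249, described as 3-methyl-2-oxobutanoate hydroxymethyltransferase of pantothenate synthesis, read 0.96, 1.09 and 0.64 FPKM in the clrB deletion, against 99.0, 99.5 and 86.8 in the rcoA deletion and 0.72, 0.87 and 1.09 in wild type. In PDE_04249 the clrB deletion and the wild type overlapped and the rcoA deletion stood apart. PDE_07004, described as a mitochondrial enoyl-CoA reductase, averaged 30.8 ± 15.2 FPKM in the clrB deletion, against 1125 ± 69.8 in the rcoA deletion and 4.72 ± 0.827 in wild type.

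Counts of the remaining lists are set beside the shares over all genes, 35.2% higher and 24.9% lower. Over all genes the counts also moved with the scaling, from 3204 higher and 2266 lower in the main fit. They were 2626 and 2816 with trimmed mean scaling, 2548 and 2918 with equal medians, and 2392 and 2892 with quantile normalization. Genes of ER folding and secretion gave 9 of 51 higher and 9 lower (17.6% each), and 16 and 10 without clrB deletion replicate 2. With the other scalings 8 were higher and 13 to 16 lower. The folding stress activator Hac1 (PDE_01436) had a log2 difference of -0.42 that missed the threshold (adjusted p = 0.0509). It passed without clrB deletion replicate 2 (adjusted p = 0.015), wild type replicate 1 (0.0448) or wild type replicate 3 (0.0281). Without any other single library it did not (adjusted p 0.0677 to 0.178). Proteasome and ubiquitin genes gave 43 of 119 higher and 16 lower (36.1% and 13.4%), or 36 and 29 with trimmed mean scaling, 35 and 30 with equal medians and 30 and 23 with quantile normalization, and a proteasome subunit N4 gene (PDE_00230) was 13.0-fold lower in the clrB deletion. Protein kinases gave 43 of 95 higher and 14 lower (45.3% and 14.7%), and with the other scalings 32 higher and 19 to 21 lower. Transcription factors gave 49 of 121 higher and 27 lower (40.5% and 22.3%). Under trimmed mean scaling 38 were higher and 29 lower, under equal medians 36 and 32, and under quantile normalization 35 and 32. Histone modifiers and chromatin remodelers gave 20 of 58 higher and 12 lower (34.5% and 20.7%), near the shares over all genes. Their counts were 14 and 15 with trimmed mean scaling, 13 and 15 with equal medians and 13 and 16 with quantile normalization. DNA replication and histone genes gave 31 of 96 higher and 14 lower (32.3% and 14.6%). With trimmed mean scaling 23 were higher and 21 lower, with equal medians 21 and 21, and with quantile normalization 20 and 19. Efflux transporters gave 16 of 44 higher and 14 lower (36.4% and 31.8%), the higher share near that over all genes. Their counts were 14 and 16 without clrB deletion replicate 2 and 14 and 15 without rcoA deletion replicate 1. With the other scalings they were 14 and 17, 13 and 17, and 11 and 21. Multidrug transporter PDE_00236 read 5.32, 14.0 and 8.59 FPKM in the clrB deletion, against 178, 162 and 108 in the rcoA deletion and 6.25, 4.71 and 6.74 in wild type (16.1-fold lower).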

How the data were processed

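RNA abundance was measured in 9 libraries, 3 per strain, of oligo(dT)-captured RNA cut with NlaIII and MmeI into short tags, per the labels' protocols. The authors deposited 1 table of FPKM values per gene, with 2 decimals, for 9907 genes. Which aligner, counting method and build were used is not stated in the sources at hand. No counts were used, so the depth is unknown and no counting error can be given. Scaling by transcript length is unusual for tag libraries and can shift levels between genes. It leaves the ratio of a gene's FPKM between strains unchanged. It can alter the difference on the log2(FPKM + 1) scale, most for low genes, and whether a gene was tested. A further 3 columns of values, of a strain without samples in the labels, were not analysed here. Gene descriptions are those of the table, they are automated, 827 genes carry several, and near-identical copies cannot be told apart.

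Differences were fitted with limma 3.58.1 in R 4.3.3 on log2(FPKM + 1), with an intensity trend, over all 9 libraries and the 9097 genes with a mean of at least 1 FPKM, and p-values were adjusted over all of them by the Benjamini-Hochberg method. The pseudocount understates differences of low genes. Fold changes are ratios of mean FPKM. The code was tested on simulated data. The replicate numbers were checked for pairing by correlating deviations from strain means. Alternatives were other pseudocounts (0.1 and 5), other filters, 3 other scalings, the 6 deletion libraries alone, no trend, a replicate block, and each library left out.

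The 30 gene lists (words in the descriptions), the named genes and the tests were chosen with earlier results of these data known. Genes were named by rule: the deleted genes and main regulators, the 15 largest differences in each direction among described, non-overlapping genes with at least 10 FPKM in either strain, and per list up to 2 in each direction and the member with the highest mean. Others, and the trimmed lists and identifier runs, were chosen after their values were seen. No identifier (0) matched the reference annotation, which lists 9964 genes, so no coordinates or sequences are given.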

Additional observations from a re-analysis of the deposited data

How the results depend on the processing

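Across the 19 alternatives the number of called genes was 4557 (without rcoA deletion replicate 2) to 5672 (without clrB deletion replicate 2), against 5470. A fit of the 6 deletion libraries alone called 5090. Of the 262 named genes with a test, 249 kept direction and side of the threshold under every alternative, 13 changed side in at least 1, and 0 reversed. Many of these genes were named because they were called with large differences, so these counts do not describe the other calls. Of all 5470 calls, 83.1% were kept in the same direction without rcoA deletion replicate 2 and 83.8% with quantile normalization. The replicate numbers did not pair the libraries (correlations of same-numbered clrB and rcoA deletion libraries -0.161, 0.014 and 0.202), and a fit with the replicate number as a block called 5380 genes. With quantile normalization, 12 hemicellulose and 3 glycolysis genes were higher, and with equal medians 15 translation genes. Secondary metabolism had 8 lower genes under each of the 3 other scalings, and the citrate cycle 4 higher ones with trimmed mean scaling or equal medians. In these cases the cause was not tested. The unknown depth limits what can be said of genes near 0, and 3 libraries per strain limit small differences.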

Other observations

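Some of the largest differences were in genes without a product description, named here after their values were seen. PDE_09832 read 42422, 17051 and 38524 FPKM in the clrB deletion, against 414, 484 and 1285 in the rcoA deletion and 13477, 14506 and 17772 in wild type. Its log2 difference was 5.57, and replicate 2 of the clrB deletion was within the range of the wild type. PDE_06609 read 851, 397 and 889 FPKM in the clrB deletion, against 0.42, 0.68 and 0.5 in the rcoA deletion and 2212, 2067 and 2214 in wild type. PDE_08159 read 1611, 958 and 1417 FPKM in the clrB deletion, against 2.96, 4.12 and 3.86 in the rcoA deletion and 1201, 1180.0 and 999.9 in wild type. In both, the 3 rcoA deletion libraries stood below all others, by 8.78 and 8.13 on the log2 scale relative to the clrB deletion.

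Other undescribed genes had the reverse order. PDE_02469 read 2.73, 11.3 and 2.32 FPKM in the clrB deletion, against 673, 713 and 748 in the rcoA deletion and 27.6, 14.0 and 19.1 in wild type. Its log2 difference of -7.06 was -7.66 without clrB deletion replicate 2, which was nearest to the wild type. PDE_01376 read 12.1, 29.8 and 13.2 FPKM in the clrB deletion, against 831, 886 and 723 in the rcoA deletion and 15.1, 10.8 and 10.5 in wild type (log2 difference -5.50). Among described genes, PDE_04519, which the naming rule selected and which is described as a tRNA pseudouridine synthase, read 1321, 892 and 1234 FPKM in the clrB deletion, against 35329, 29919 and 29195 in the rcoA deletion and 1267, 860.2 and 979 in wild type, and was 27.4-fold lower in the clrB deletion.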
